A study of Mus musculus with 35 samples.

Results

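The myeloid C-type lectins followed here are 9 genes, Clec4e, Clec4d, Clec4n, Clec7a, Clec4a1, Clec4a2, Clec4a3, Clec5a and Clec12a, out of 21203 genes in the deposited table. They were taken by name, and the group was chosen by the level of Clec4e, among the genes raised most in injured over Sham mice, so the differences between injured and Sham mice selected it and are given below as a description, with no test. All 9 passed the filter on low counts, as did 17131 genes in all, and that filter asked for 4 libraries at 0.306 CPM or more. Clec4e, Clec4d and Clec4n reached that level in 9, 14 and 15 libraries, of which 8, 13 and 14 were injured mice of 1 wpi (weeks post injury), so these 3 passed through that week alone. Clec4a1 had 4 such libraries outside that week, just enough, and the remaining 5 genes had 18 or 19. RNA sequencing was done on 34 libraries, 1 mouse each, in 7 groups. Male C57BL/6NCrl mice received a closed head injury and, on the fifth day after it, an injection into the left hippocampus of phosphate-buffered saline (PBS), of naïve mesenchymal stromal cells (MSCs) or of MSCs transfected with synthetic interleukin-4 mRNA (IL-4 MSCs). Brains were taken at 1 or 3 wpi. Each group held 5 mice, apart from PBS at 3 wpi with 4. The 5 Sham mice, sampled in either week, had neither injury nor injection and formed 1 group, so injury and injection cannot be told apart in any difference from Sham. No sequenced group held MSCs transfected with another mRNA, so interleukin-4 and the transfection itself cannot be told apart in any difference of IL-4 MSCs. The tissue is labelled left cortex and was a slab around the injection site, so every value is an average over neurons, glia and whatever immune cells the slab held. In such bulk tissue fewer cells of a type and less RNA per cell cannot be told apart.

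C-type lectin receptors of myeloid cells bind sugars, lipids or cell debris. Mincle (Clec4e), MCL (Clec4d) and Dectin-2 (Clec4n) carry no signalling motif of their own and pair with the Fc receptor gamma chain, encoded by Fcer1g. Dectin-1 (Clec7a), the receptor for fungal beta-glucan, signals through a motif in its own tail, and MDL-1 (Clec5a) pairs with the adaptor DAP12, encoded by Tyrobp. All of these lead to the kinase Syk, and from there the adaptor Card9 carries the signal to NF-kB. Clec4a2 (DCIR) and Clec12a (MICL) carry inhibitory motifs that recruit phosphatases, and Clec4a1 and Clec4a3 encode relatives of DCIR. In brain, Clec7a is known as a gene that microglia raise when they leave their resting state, and Mincle is known from monocytes, macrophages and neutrophils after tissue damage.

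All 9 genes lie on chromosome 6 (GRCm38, GENCODE M21). A cluster of 9 genes spanning 368023 bases, from 122921848 to 123289870, holds 6 of them, in the order Clec4a1, Clec4a3, Clec4a2, Clec4n, Clec4d and Clec4e, with Clec4e the only one of these 6 on the minus strand (chr6:123281789-123289870, 6 exons). Clec12a (chr6:129342691-129365303, plus strand) and Clec7a (chr6:129461591-129472779, minus strand, typed as a polymorphic pseudogene in that annotation) lie further along the chromosome. Clec5a (chr6:40574894-40585821, minus strand) stands apart from both. Close relatives in a cluster can share reads: of the 31-base words in its transcripts, Clec4a2 shared 10.5% with other genes, most often Clec4b1, and Clec4a3 shared 2.19%. The remaining 7 shared less than that, down to no shared word in Clec4e, Clec4d, Clec4a1 and Clec5a.

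Promoter windows of 300 bases, 250 before to 50 after the start, were taken from RefSeq (GRCm38.p6) and matched 8 of the 9 genes, all but Clec4n. The 5 shown belong to the genes on which the results turn: Clec4e and Clec4d, which varied together between mice, and Clec7a, Clec4a1 and Clec4a3, which were highest with IL-4 MSCs. They are written 5′ to 3′ on the gene's strand, and capitals mark matches to the motifs named after them.
Clec4e, chr6:123289822-123290121, minus strand: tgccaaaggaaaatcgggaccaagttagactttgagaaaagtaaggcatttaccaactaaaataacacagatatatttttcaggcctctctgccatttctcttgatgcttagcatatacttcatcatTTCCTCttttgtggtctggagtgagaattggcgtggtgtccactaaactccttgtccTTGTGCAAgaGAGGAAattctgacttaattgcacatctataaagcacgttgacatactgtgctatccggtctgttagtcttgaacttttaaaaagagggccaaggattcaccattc
Clec4d, chr6:123261857-123262156, plus strand: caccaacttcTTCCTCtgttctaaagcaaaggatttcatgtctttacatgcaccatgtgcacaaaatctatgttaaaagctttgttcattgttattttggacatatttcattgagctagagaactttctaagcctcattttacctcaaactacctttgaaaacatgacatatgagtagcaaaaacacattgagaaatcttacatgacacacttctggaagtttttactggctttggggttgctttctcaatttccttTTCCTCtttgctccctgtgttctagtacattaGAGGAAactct
Clec7a, chr6:129472730-129473029, minus strand: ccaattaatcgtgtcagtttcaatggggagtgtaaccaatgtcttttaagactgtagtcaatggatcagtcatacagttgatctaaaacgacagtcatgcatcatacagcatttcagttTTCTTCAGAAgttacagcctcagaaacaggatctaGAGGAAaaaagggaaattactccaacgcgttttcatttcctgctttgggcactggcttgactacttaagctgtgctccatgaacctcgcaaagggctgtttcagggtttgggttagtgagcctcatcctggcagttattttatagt
Clec4a1, chr6:122921598-122921897, plus strand: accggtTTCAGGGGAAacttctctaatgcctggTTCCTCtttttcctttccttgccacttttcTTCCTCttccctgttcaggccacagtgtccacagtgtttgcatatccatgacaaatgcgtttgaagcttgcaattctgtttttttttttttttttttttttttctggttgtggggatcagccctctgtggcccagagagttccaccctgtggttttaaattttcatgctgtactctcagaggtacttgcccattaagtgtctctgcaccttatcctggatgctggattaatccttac
Clec4a3, chr6:122952265-122952564, plus strand: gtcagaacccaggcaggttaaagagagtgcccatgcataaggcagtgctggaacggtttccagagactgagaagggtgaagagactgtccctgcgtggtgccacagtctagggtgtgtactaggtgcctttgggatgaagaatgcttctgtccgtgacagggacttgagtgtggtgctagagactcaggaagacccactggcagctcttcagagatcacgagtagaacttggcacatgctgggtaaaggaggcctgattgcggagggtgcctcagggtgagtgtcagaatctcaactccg

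Letters were searched on both strands, and no 2 matches overlapped. The core of the myeloid factor PU.1, GAGGAA, was in a window of 7 of the 8 genes, in Clec4a3 only in the window not printed. Shares over all genes took 1 window a gene, the first listed, in 27025 genes, and 28.3% held this core. The 8 genes were instead counted over all their 10 windows, which gives them more room for a match. The STAT6 letters (TTC, any 4 bases, GAA) are named for the factor that interleukin-4 receptors activate. They were in windows of 3 of the 8 (Clec7a, Clec4a1 and Clec5a), against 6.99% of those first windows. In Clec7a they began 131 bases before the start and in Clec4a1 244 bases before it. Clec4a3 had no match in the window printed, and its other window held 1 PU.1 core. The C/EBP letters TTGCNNAA were in Clec4e and Clec12a (10.8% of the first windows). The AP-1 letters TGANTCA were in Clec4a2 and Clec12a (7.93%), and the NF-kB letters (GGGA, any 2 bases, TTCC) in none of the 8 (1.43%). Such matches describe the sequence only.

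Levels below are CPM, each library's deposited estimated count as a share of its own total in the usual scaling. Totals ran from 29838423 to 41554322, so 3 counts stood for 0.0722 to 0.101 CPM. Defining markers of microglia (P2ry12, Tmem119 and Sall1), of neurons and of astrocytes were present in every library. Striatal markers (7 genes such as Drd1 and Drd2) summed to between 178 and 2087 CPM over the libraries, with the highest in IL-4 MSCs at 3 wpi, so the slab did not hold the same mix of regions in each mouse. The part of that in any result below was not tested.

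Clec4e was almost silent without injury. Its level in the 5 Sham mice was 0, 0, 0, 0.0241 and 0 CPM, 1 read in all 5 libraries together. At 1 wpi it was 0.127, 0.123, 4.06, 0.0632 and 0.147 CPM after PBS, and 0.389, 0.247, 4.92, 0.0645 and 0.188 CPM after MSCs. With IL-4 MSCs it was 0.771, 0.424, 0.407, 1.46 and 0.415 CPM. Each of the 15 injured mice of 1 wpi thus lay above each Sham mouse, but 1 mouse in the PBS group and 1 in the MSC group, both replicate 3, stood far above their groups with 127 and 181 reads against 2 to 14 in the others. With the reads of each group pooled, the ratio to Sham was 147 for PBS, 218 for MSCs and 118 for IL-4 MSCs. The Sham side of each ratio is a single read. Of 143 PBS reads 127 came from replicate 3, and of 211 MSC reads 181, so those 2 ratios mostly describe 1 mouse each. No interval is given, since reads are not replicate mice. By its fitted log2 fold change Clec4e ranked 5, 3 and 36 among the 17131 genes in those contrasts, the values for which it was chosen. At 3 wpi it was back at 0 to 0.145 CPM after PBS, 0 to 0.345 after MSCs and 0 to 0.105 after IL-4 MSCs, with 0 reads in 7 of the 14 mice.

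Clec4d, the partner with which Mincle forms a heteromer, showed the same mice at the top. It was at 0.0325, 0.0307, 0, 0.0241 and 0.061 CPM in Sham, at 0.222, 0.785, 3.74, 0.790 and 0.442 after PBS at 1 wpi and at 0.444, 0.340, 4.94, 0.580 and 0.563 after MSCs. With IL-4 MSCs at 1 wpi it was at 1.98, 0.424, 0.553, 1.37 and 0.297 CPM. All 15 injured mice of 1 wpi were above all Sham mice. Clec4n, which binds fungal mannans, started from a higher level in Sham, 0.065 to 0.275 CPM, and reached 0.317, 0.712, 1.98, 0.569 and 0.324 CPM after PBS and 0.555, 0.340, 2.17, 0.322 and 0.407 CPM after MSCs. With IL-4 MSCs 1 of the 5 mice, at 0.226 CPM, fell within the Sham range, the others being at 0.386 to 1.14. For all 3 genes replicate 3 was thus the highest mouse of the PBS and of the MSC group at 1 wpi, as the plot of levels by mouse shows. The other 4 mice spread too, from 0.222 to 0.790 CPM in Clec4d after PBS and from 0.0645 to 0.389 in Clec4e after MSCs.

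**Figure D1:**
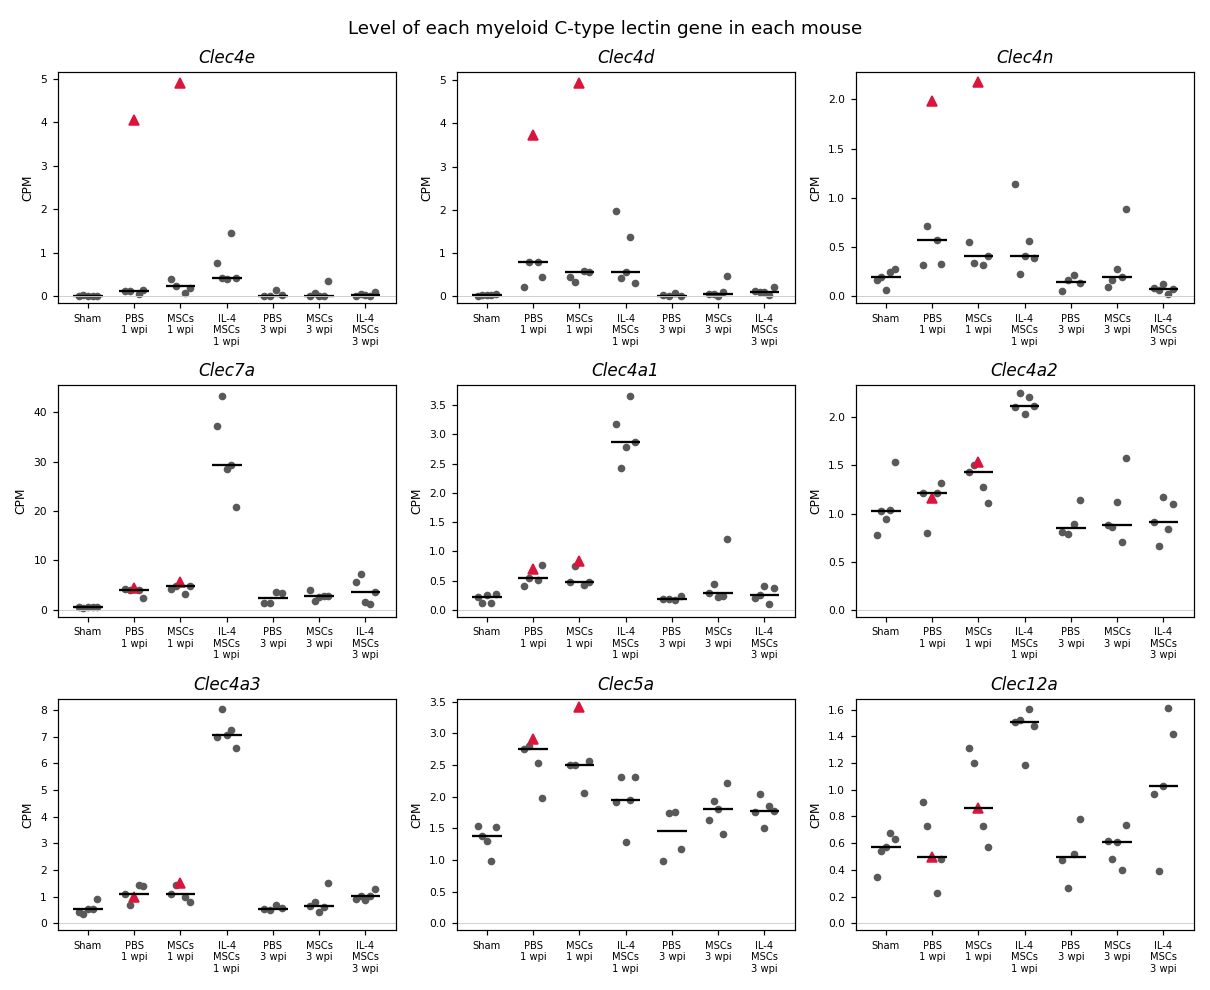
Level of each gene (CPM, linear axis from 0) in each mouse by group, 1 point a mouse, with a bar at the group median. Red triangles mark replicate 3 of the PBS and of the MSC group at 1 wpi, which reached 4.06 and 4.92 CPM of Clec4e, while for Clec7a, Clec4a1 and Clec4a3 the 5 IL-4 MSC mice of 1 wpi lie above every other mouse.

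Both of these mice were also high in the neutrophil and monocyte genes S100a8 and S100a9. S100a9 was at 6.08 and 7.69 CPM in them against 0.560 to 1.69 CPM in the other 8 mice of their groups, and S100a8 at 4.48 and 5.24 CPM against 0.737 to 1.17. The neutrophil surface marker Ly6g stayed at 0 to 0.0555 CPM in both groups, and Retnlg, another neutrophil gene, was at 0.128 and 0.217 CPM in the 2 mice against up to 0.126 and 0.444 CPM in the others of their groups. Over the neutrophil list of 7 genes the summed level was 8.24 to 21.3 CPM after PBS, 9.66 to 23.2 after MSCs and 13.03 to 20.4 after IL-4 MSCs. Whether these cells had a part in the Clec4e level was not tested. At 3 wpi replicate 5 of the MSC group stood out likewise, with S100a9 at 6.35 CPM against 0.0624 to 0.561 in its group, and it was the highest of its group in Clec4e (0.345), Clec4d (0.46), Clec4n (0.891), Clec4a1 (1.21), Clec4a2 (1.57), Clec4a3 (1.52), Clec5a (2.21) and Clec12a (0.735 CPM).

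**Figure D2:**
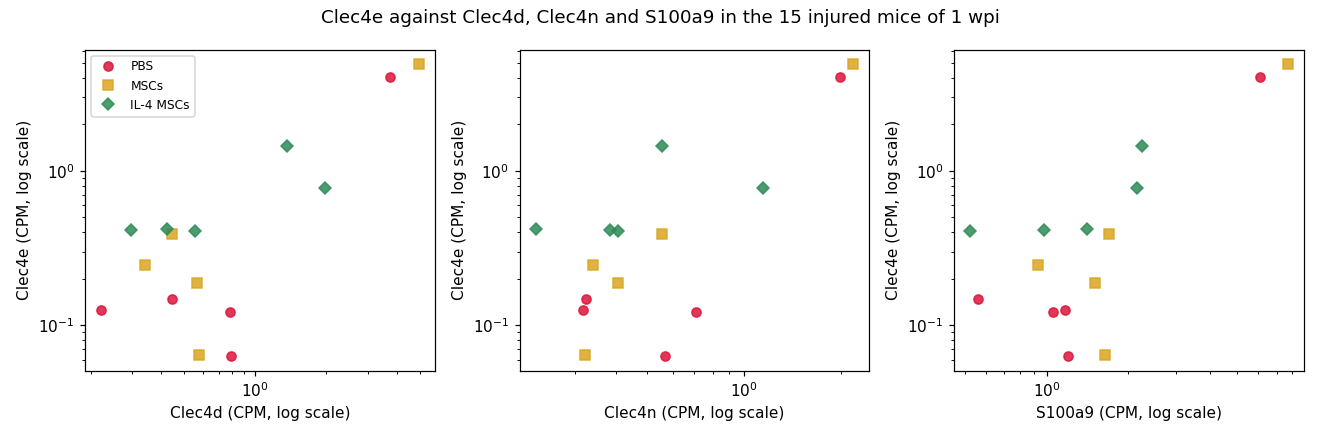
Clec4e (y axis, CPM, log scale) against Clec4d, Clec4n and S100a9 (x axes, CPM, log scale) in the 15 injured mice of 1 wpi, 1 point a mouse, coloured by treatment. The PBS mouse at 4.06 CPM and the MSC mouse at 4.92 CPM of Clec4e are also the highest in S100a9, and the 5 IL-4 MSC mice all lie at 0.407 CPM or more of Clec4e.

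In Clec4e no difference between treatments passed the test at 1 wpi. The log2 fold change of IL-4 MSCs against PBS was -0.40 (SE 0.902, adjusted p = 0.825), of IL-4 MSCs against MSCs -0.80 (SE 0.878, adjusted p = 0.691) and of MSCs against PBS 0.40 (SE 0.859, adjusted p = 0.996). These values rest on replicate 3 of each control group. All 5 IL-4 MSC mice, at 0.407 CPM or more, were above the other 4 PBS mice and the other 4 MSC mice, and without the 2 libraries the difference from PBS turned to 2.51 (SE 0.662, adjusted p = 0.00865), a setting added after the data were seen and chosen for the Clec4e level of these mice, so it describes them and tests nothing. Without the PBS library alone it was 2.53 (adjusted p = 0.0975). Clec4d and Clec4n gave -0.42 (SE 0.674, adjusted p = 0.747) and -0.57 (SE 0.541, adjusted p = 0.539) against PBS, with groups that overlapped.

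Clec7a, Clec4a1 and Clec4a3 were the members that differed most between treatments at 1 wpi. In Clec7a the Sham mice were at 0.491, 0.524, 0.502, 0.434 and 0.642 CPM and the PBS mice at 4.15, 3.94, 4.35, 4.11 and 2.30. The MSC mice were at 4.16, 4.81, 5.57, 3.13 and 4.85 CPM, and the IL-4 MSC mice at 37.2, 43.3, 28.4, 29.3 and 20.9 CPM. The lowest IL-4 MSC mouse was thus far above the highest of any other group. Clec7a was higher with IL-4 MSCs than with PBS by 3.04 log2 units (SE 0.318, adjusted p = 1.44e-08) and than with MSCs by 2.79 (SE 0.312, adjusted p = 8.11e-08), in edgeR's quasi-likelihood test, and both control groups were themselves above Sham in every mouse.

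Clec4a3 was at 0.552, 0.553, 0.418, 0.361 and 0.915 CPM in Sham, at 1.11, 0.687, 0.991, 1.42 and 1.38 after PBS and at 1.11, 1.42, 1.49, 0.967 and 0.814 after MSCs. It was at 6.97, 8.03, 7.07, 7.23 and 6.55 CPM with IL-4 MSCs, a tight group with no overlap with any other. The difference was 2.65 log2 units from PBS (SE 0.223, adjusted p = 1.76e-10) and 2.59 from MSCs (SE 0.222, adjusted p = 4.12e-10). Clec4a1, its neighbour in the cluster, was at 0.120 to 0.275 CPM in Sham, 0.412 to 0.766 after PBS, 0.419 to 0.842 after MSCs and 2.43 to 3.66 after IL-4 MSCs. It was 2.31 log2 units above PBS (SE 0.301, adjusted p = 7.60e-07) and 2.31 above MSCs (SE 0.301, adjusted p = 1.28e-06), again with no mouse overlapping.

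The inhibitory receptors Clec4a2 and Clec12a moved less than Clec7a, Clec4a1 and Clec4a3. Clec4a2 (DCIR) was at 0.776 to 1.54 CPM in Sham, 0.80 to 1.31 after PBS and 1.11 to 1.53 after MSCs, and at 2.11, 2.25, 2.04, 2.21 and 2.12 after IL-4 MSCs. That was 0.88 log2 units above PBS (SE 0.180, adjusted p = 0.000570) and 0.62 above MSCs (SE 0.177, adjusted p = 0.0220), the latter not past the threshold without replicate 5 of the MSC group (0.55, adjusted p = 0.0778). Its estimated counts were not whole, to within 0.01, in any of the 34 libraries, nor were those of Clec12a. Those of Clec7a were not whole in 31 of the 34. Clec12a (MICL) was at 0.911, 0.728, 0.493, 0.228 and 0.478 CPM after PBS, on both sides of the Sham range of 0.347 to 0.678, and at 1.51, 1.53, 1.19, 1.61 and 1.48 with IL-4 MSCs. It was 1.32 log2 units above PBS (SE 0.306, adjusted p = 0.00219), while against MSCs, whose mice spread from 0.575 to 1.31 CPM, the value was 0.61 (SE 0.290, adjusted p = 0.229).

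Clec5a, which pairs with the adaptor that Tyrobp encodes, was not called between treatments at 1 wpi. It was at 1.97 to 2.91 CPM after PBS, 2.06 to 3.42 after MSCs and 1.28 to 2.32 after IL-4 MSCs, against 0.984 to 1.53 in Sham, so the IL-4 MSC group alone overlapped with Sham at 1 wpi. For IL-4 MSCs against PBS its log2 fold change came to -0.44 (SE 0.167, adjusted p = 0.0660), which passed only when replicate 5 of the PBS group was left out (-0.52, adjusted p = 0.0349) among the single libraries left out.

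**Figure D3:**
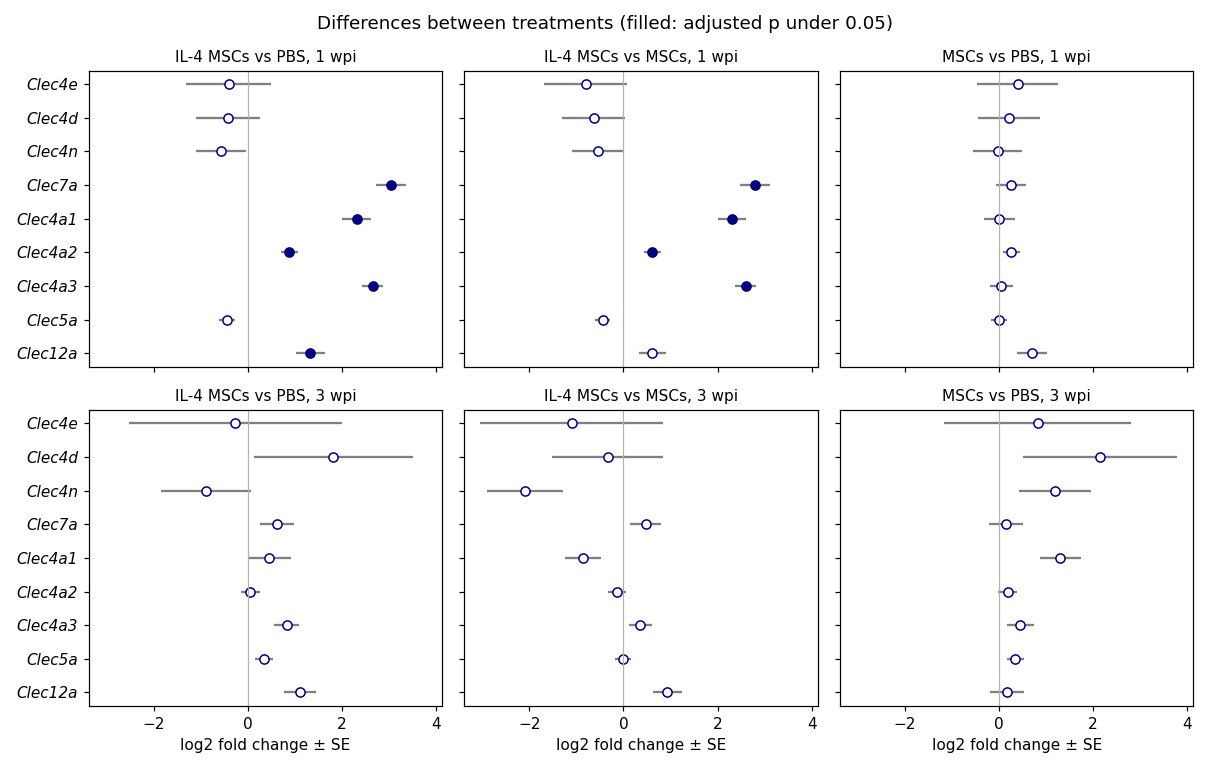
Log2 fold change (x axis, bars 1 SE either side) of each gene between treatments at 1 wpi (top) and 3 wpi (bottom), with filled points where the adjusted p of edgeR's quasi-likelihood test was under 0.05. Filled points are seen only for IL-4 MSCs at 1 wpi, 5 genes against PBS and 4 against MSCs.

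Counted over the group, 5 of the 9 genes were higher with IL-4 MSCs than with PBS at 1 wpi and 0 were lower, where 11.2% of all tested genes were higher (5 of 9 without overlap, against 11.5%). Against MSCs 4 of 9 were higher, where 7.66% of all genes were. The median log2 fold change of the 9 was 0.88 and 0.61, beside -0.00419 and -0.00807 over all tested genes. Between MSCs and PBS edgeR called 0 of the 9 (0.123% of all genes either way), 1 at an unadjusted p under 0.05, Clec12a at 0.71 (SE 0.315, adjusted p = 0.996), and DESeq2 called 0.

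Markers of myeloid cells moved alongside. The pan-myeloid list of 6 genes summed to 114 to 184 CPM in Sham, 224 to 274 after PBS, 242 to 309 after MSCs and 318 to 388 after IL-4 MSCs at 1 wpi. Of its 6 genes 5 were higher with IL-4 MSCs than with PBS, where 11.2% of all tested genes were. The monocyte and macrophage list, also of 6 with 5 higher, summed to 31.7 to 69.3 CPM after PBS, 41.3 to 75.6 after MSCs and 102 to 191 after IL-4 MSCs, and Ccr2, the receptor by which monocytes enter tissue, was 2.23 log2 units above PBS (SE 0.299, adjusted p = 1.23e-06). The microglial list of 7 genes did not separate the treatments, at 298 to 399, 316 to 359 and 312 to 389 CPM, with Sall1 higher (0.23, adjusted p = 0.00179) and Fcrls lower (-0.57, adjusted p = 0.00230). Of the other immune lists, 1 of 5 dendritic cell genes, Batf3 (1.42), and 1 of 5 T cell genes, Cd4 (1.86), were higher than with PBS. Of all tested genes 11.2% were higher, so nothing is read from these counts. In the neutrophil list, Retnlg passed the filter through the IL-4 MSC group of 1 wpi. Outside it, only replicate 1 of MSCs at 1 wpi (0.444 CPM) and replicate 5 of MSCs at 3 wpi (0.689) reached 0.306 CPM. Its value of 5.10 over PBS is thus given without a test. Mmp8 was at 2.02, and whether it passed in the same way was not tested. Retnlg was at 2.49 to 4.94 CPM with IL-4 MSCs and at 0.0491 to 0.128 after PBS, while Ly6g was at 0 to 0.0621 CPM with IL-4 MSCs. The part of any of these cells in the lectin levels was not tested.

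Per transcript length, the order of the genes in Sham was not that of the injured groups at 1 wpi. On the deposited TPM scale, which corrects for transcript length, Clec4a2 was the highest of the 9 in Sham at 3.60 ± 1.08 (SD, n = 5), ahead of Clec5a at 1.65 ± 0.555, Clec12a at 1.48 ± 0.441 and Clec4a3 at 1.04 ± 0.410, the last 3 within their spread of one another. Clec7a at 0.570 ± 0.180, Clec4n at 0.388 ± 0.168 and Clec4a1 at 0.30 ± 0.111 TPM came next, and neighbours among them did not differ beyond their spread. Clec7a had the highest mean in each injured group of 1 wpi, at 4.94 ± 1.44 TPM after PBS and 6.37 ± 1.39 after MSCs, with Clec4a2 next at 3.50 ± 0.35 and 4.15 ± 0.882, and the mice of these 2 genes overlapped. After IL-4 MSCs at 1 wpi Clec7a led at 45.1 ± 11.8 TPM and Clec4a3 followed at 18.0 ± 2.25, with no overlap between their mice. Clec4a2 at 5.21 ± 0.404 and Clec4a1 at 4.36 ± 0.690 TPM came after them, overlapping, and Clec4e at 1.27 ± 1.17 and Clec4n at 1.04 ± 0.695 TPM were lowest.

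**Figure D4:**
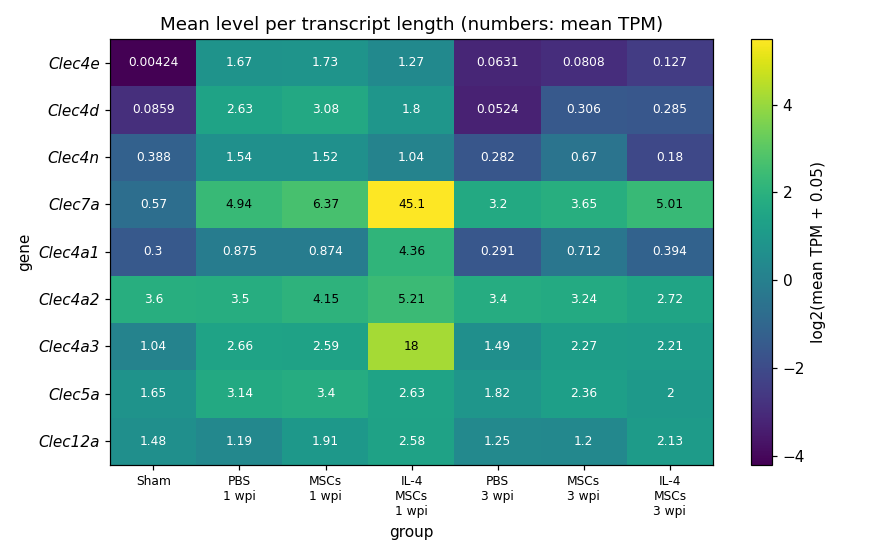
Mean TPM of each gene (rows) in each group (columns), coloured on a scale of log2(mean TPM + 0.05) with the mean TPM printed in each cell. Clec7a (45.1) and Clec4a3 (18.0) with IL-4 MSCs at 1 wpi are the brightest cells, and Clec4e in Sham the darkest.

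At 3 wpi no difference between treatments passed the test. edgeR called 0 of the 9 genes in each of the 3 comparisons, where it called 2.94% of all genes between IL-4 MSCs and PBS, 3.47% between IL-4 MSCs and MSCs and 0.0817% between MSCs and PBS. At an unadjusted p under 0.05 there were 2, 3 and 1 genes, and DESeq2 called 1, 0 and 0. Clec12a came nearest, at 0.970, 0.390, 1.03, 1.61 and 1.42 CPM with IL-4 MSCs against 0.475, 0.265, 0.519 and 0.783 with PBS, which put it 1.10 log2 units higher without passing (SE 0.337, adjusted p = 0.0675). It passed in DESeq2 (adjusted p = 0.0371), without replicate 4 of the PBS group (1.35, adjusted p = 0.0397) and without replicate 2 of the IL-4 MSC group (1.30, adjusted p = 0.00560). Striatal markers stood apart in the same mice, with sums of 1285, 303, 1242, 2087 and 1551 CPM in IL-4 MSC replicates 1 to 5 against 188 to 416 CPM after PBS, and all 7 were called higher than with PBS. The mouse lowest in Clec12a, replicate 2, was the lowest of its group in these too, and the part of the dissection in the Clec12a value was not tested. Among values that did not pass, Clec4n was -2.09 in IL-4 MSCs relative to MSCs (SE 0.801, adjusted p = 0.148) and Clec4a1 1.31 in MSCs relative to PBS (SE 0.425, adjusted p = 0.604). In Clec4a3 all 5 IL-4 MSC mice, at 0.862 to 1.28 CPM, were above all 4 PBS mice, at 0.515 to 0.70, and yet the value of 0.82 (SE 0.275) had an adjusted p of 0.0963.

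Clec7a kept a raised level at 3 wpi. It was at 1.45, 1.39, 3.70 and 3.48 CPM after PBS, at 4.06, 1.73, 2.63, 2.80 and 2.73 after MSCs and at 5.61, 7.24, 1.54, 1.26 and 3.67 after IL-4 MSCs. Every one of these 14 mice was above every Sham mouse, whose highest was 0.642 CPM, and Clec7a was the only one of the 9 of which this held in each of the 3 groups. The IL-4 MSC mice spread widely and overlapped with both other groups, and their difference from PBS was 0.62 (SE 0.358, adjusted p = 0.390).

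Set beside Sham at 1 wpi, the groups did not overlap in 6 of the 9 genes after PBS, 6 after MSCs and 7 after IL-4 MSCs, each time with the injured mice higher. Over all tested genes the same held for 8.09%, 11.3% and 20.6%. At 3 wpi it held for 1 gene in each group, Clec7a, against 1.82%, 1.87% and 2.4% of all genes. The median log2 fold change of the 9 from Sham was 1.52, 1.52 and 3.62 at 1 wpi and -0.04, 0.77 and 0.88 at 3 wpi. These contrasts share the 5 Sham mice and include the values that chose the group, so nothing is read from them.

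From 1 to 3 wpi the levels of Clec4e, Clec4d and Clec4n are given without a test, since these genes passed the filter through the mice of 1 wpi. The fitted log2 fold changes of Clec4e were -4.06 after PBS, -3.63 after MSCs and -3.92 after IL-4 MSCs. Those of Clec4d were -5.20, -3.26 and -2.96, and those of Clec4n -2.4, -1.18 and -2.72. At 3 wpi Clec4d was at 0 to 0.0724 CPM after PBS, 0 to 0.46 after MSCs and 0.0268 to 0.210 after IL-4 MSCs. Clec4n was at 0.0547 to 0.217 CPM after PBS, 0.0958 to 0.891 after MSCs and 0.0268 to 0.128 after IL-4 MSCs. In all 3 genes every IL-4 MSC mouse of 3 wpi was below every one of 1 wpi, which held for 18% of all genes. The filter favours such a separation in these 3, so nothing is read from it. The PBS and MSC values include replicate 3 of each 1 wpi group.

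Of the other 6 genes, 4 fell in the IL-4 MSC group, where 16.6% of all genes fell. These were Clec4a1 (-3.41, SE 0.333, adjusted p = 1.10e-09), Clec7a (-2.99, SE 0.316, adjusted p = 5.21e-09), Clec4a3 (-2.74, SE 0.224, adjusted p = 3.27e-11) and Clec4a2 (-1.13, adjusted p = 1.01e-05). In each of the 4 all mice of 3 wpi lay below all mice of 1 wpi, which held for 18% of all genes. Clec5a (-0.07, adjusted p = 0.804) and Clec12a (-0.36, adjusted p = 0.361) were not called.

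After PBS, 3 of these 6 fell over the same interval, where 4.90% of all genes fell. Clec5a fell by 0.85 (SE 0.183, adjusted p = 0.00279), and Clec4a1 by 1.56 (SE 0.416, adjusted p = 0.0199). Clec4a3 fell by 0.91 (SE 0.275, adjusted p = 0.0452), close to the threshold, and its call was lost in 8 of 9 omissions of a single library (adjusted p from 0.0205 to 0.140 over the 9), with no filter on low counts (0.0537) and when only these groups were fitted (0.0619). That of Clec4a1 was lost without replicate 1, 2 or 3 of PBS at 3 wpi, which left Clec5a as the 1 gene called. After MSCs edgeR called 0 of the 6, where 4.93% of all genes fell, 4 at an unadjusted p under 0.05, and DESeq2 called 1, Clec5a. Without replicate 5 of the MSC group at 3 wpi, the mouse high in S100a9, 4 of the 6 were called lower, Clec4a3 among them at -0.89 (adjusted p = 0.0123).

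Whether the differences between treatments changed between the weeks was tested directly. The gap of IL-4 MSCs over PBS shrank from 1 to 3 wpi in Clec7a by 2.42 log2 units (value -2.42, SE 0.472, adjusted p = 0.00144) and in Clec4a3 by 1.83 (value -1.83, SE 0.356, adjusted p = 0.00146). The gap over MSCs shrank in Clec7a (-2.32, SE 0.453, adjusted p = 0.000951), in Clec4a1 (-3.16, SE 0.482, adjusted p = 4.84e-05) and in Clec4a3 (-2.23, SE 0.333, adjusted p = 3.86e-05). Clec4a1 in the first of these was at -1.86 (SE 0.566, adjusted p = 0.0530). In all, 3.93% of tested genes passed in this direction in the first and 5.96% in the second. Between MSCs and PBS edgeR called 0 of the 9, 1 at an unadjusted p under 0.05, and 0% of all tested genes, while DESeq2 called 0 of the 9 and 6 of all genes.

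Across the 34 libraries the members varied together to different degrees. Clec4e, Clec4d and Clec4n went together, with Pearson's r of log2 CPM of 0.81 to 0.89. They still did so once each group's mean was taken away (0.77 to 0.81). Replicate 3 of PBS and of MSCs at 1 wpi and replicate 5 of MSCs at 3 wpi led their groups in all 3. The part of these mice in r was not tested. Apart from replicate 3, the MSC mouse of 1 wpi highest in Clec4e was replicate 1 (0.389 CPM). In Clec4d it was replicate 4 (0.580 CPM), the lowest of that group in Clec4e (0.0645 CPM). Clec7a, Clec4a1 and Clec4a3 had r of 0.81 to 0.92 over all libraries. With group means taken away Clec4a1 and Clec4a3 kept 0.62, but Clec7a had 0.03 with Clec4a1 and 0.12 with Clec4a3. Clec4a2 had r of 0.84 with Clec4a1 and 0.82 with Clec4a3, and 0.54 and 0.60 within groups. Clec5a had r of at most 0.68 with any other member and Clec12a of at most 0.63. All points share library, dissection and depth, and low counts blur the first 3 genes, so these values describe the libraries only.

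**Figure D5:**
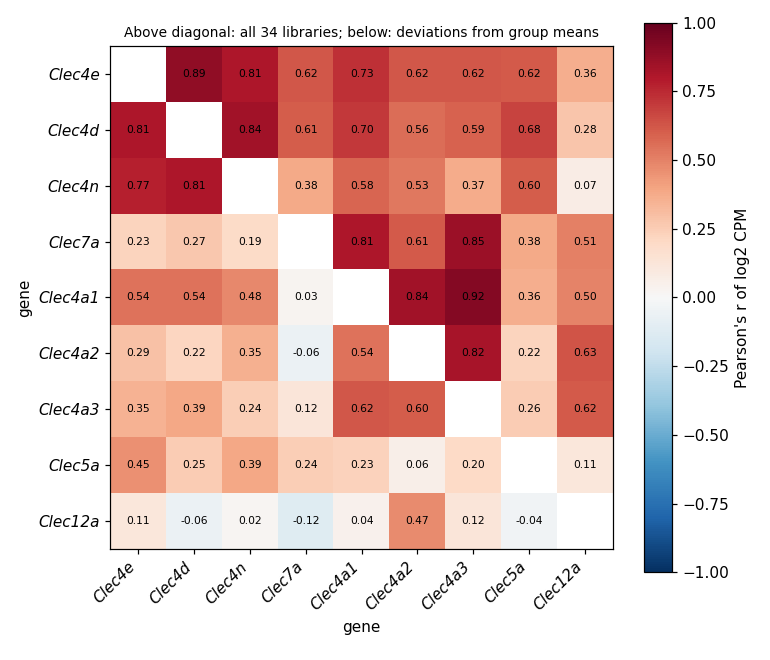
Pearson's r of log2 CPM between each pair of genes, over all 34 libraries above the diagonal and over deviations from the group means below it. Clec4e, Clec4d and Clec4n form a block on both sides (0.81 to 0.89 above, 0.77 to 0.81 below), while Clec7a goes with Clec4a1 and Clec4a3 above the diagonal only.

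Beyond the group, the genes with the most similar pattern over the 34 libraries differed between the members. For Clec4e they were Thbs1 (thrombospondin 1, r = 0.90), Il1rn (the interleukin-1 receptor antagonist, 0.90) and Acod1 (the enzyme that makes itaconate, 0.89). For Clec4d they were Nlrp3 (0.93), Cd14 (0.91) and Itgam (0.90), and for Clec4n Trem1 (0.86), Cd14 (0.84) and Il1b (0.84). Clec7a was most like Cd84 (0.95), Cxcl16 (0.95) and Ms4a7 (0.95), Clec4a1 like Tgfbi, Slfn2 and Ccl6 (0.96 each), and Clec4a3 like Ccl8, Ms4a4a and Ms4a6d (0.95 each). Clec4a2 was most like Ly6a (0.91), Retnlg (0.89) and Casp4 (0.87). The values of Clec4a3 fell to 0.54, 0.60 and 0.56 with group means taken away. Lower values were the best for Clec5a, with Cx3cr1 (0.78), Fcrls (0.76) and Gpr84 (0.75), the first a fractalkine receptor of microglia, and for Clec12a, with Col6a3 (0.80), Slc16a6 (0.79) and Itga9 (0.79). With group means taken away Clec5a kept only 0.32, 0.39 and 0.24 with its 3 genes and Clec12a 0.55 to 0.65, while the range was 0.82 to 0.83 for Clec4e, 0.65 to 0.83 for Clec4d, 0.78 to 0.87 for Clec4n, 0.62 to 0.78 for Clec7a, 0.67 to 0.75 for Clec4a1 and 0.65 to 0.72 for Clec4a2.

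Many genes of the signalling route below the activating receptors were higher with IL-4 MSCs at 1 wpi. Of 22 genes listed for it, all tested, 17 were higher than with PBS and 17 higher than with MSCs, where 11.2% and 7.66% of all genes were. None were lower, and the median log2 fold changes were 0.55 and 0.53. Against PBS the median was 0.79 over the pan-myeloid markers, 2.63 over the monocyte and macrophage markers and 0.01 over the microglial markers. The part of cell numbers in the values of the route was not tested. Fgr, a Src-family kinase of myeloid cells, was 1.81 above PBS (SE 0.40, adjusted p = 0.00136), Syk 1.17 (SE 0.149, adjusted p = 4.99e-07), Btk 0.98 (adjusted p = 0.000172) and the gamma chain Fcer1g 0.94 (SE 0.184, adjusted p = 0.000332). Tyrobp was higher by 0.61 (SE 0.139, adjusted p = 0.00186) and Card9 by 0.52 (SE 0.159, adjusted p = 0.0217). Mean levels of Syk were 5.29 ± 0.997 CPM in Sham, 8.36 ± 1.37 after PBS, 9.22 ± 2.03 after MSCs and 19.3 ± 2.50 after IL-4 MSCs (SD, n = 5 each). Between MSCs and PBS 0 of the 22 were called at 1 wpi, and at 3 wpi 0 were called between any treatments. From 1 to 3 wpi 12 of the 22 fell after PBS, 7 after MSCs and 19 after IL-4 MSCs, beside 4.90%, 4.93% and 16.6% of all genes.

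Of 3 phosphatases that inhibitory lectins recruit, Ptpn6 (SHP-1) was 0.80 above PBS (adjusted p = 0.000284) and Inpp5d (SHIP-1) 0.59 (adjusted p = 1.38e-05) with IL-4 MSCs at 1 wpi, and Ptpn11 was at -0.05. Of 16 cytokines and mediators that such receptors can induce, 9 passed the filter on low counts, and Nos2, the inducible nitric oxide synthase, was the only one called between IL-4 MSCs and PBS (1.95, SE 0.25, adjusted p = 3.94e-07) or MSCs (1.5, adjusted p = 2.54e-05), 1 of 9 in each, a share near the 11.2% and 7.66% of all genes, so nothing is read from the count. Il1b was at -0.46, Ccl3 at -0.53 and Cxcl2 at -1.36 against PBS, none of them called, and Tnf, Il6 and Il10 were among the 7 not tested. Against Sham, PBS mice of 1 wpi were higher in 4 of the 9, Cxcl2, Ccl4 (3.73), Ccl3 (3.62) and Il1b (3.32), and lower in Egr2 (-1.22) and Egr3 (-0.67), where 8.73% of all genes were higher and 5.03% lower. This contrast is among those by which the lectins were chosen. Whether the 4 higher genes passed the filter through the mice of 1 wpi alone was not tested. The counts against Sham are thus a description, and nothing is read from them.

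Other C-type lectins of the wider family also differed with IL-4 MSCs. Of 28 listed, 17 were tested, and 8 were higher with IL-4 MSCs than with PBS at 1 wpi and 8 than with MSCs, where 11.2% and 7.66% of all genes were. Mgl2 rose most (3.98, SE 0.23, adjusted p = 6.36e-14), from 0.412 ± 0.0440 CPM after PBS to 6.74 ± 1.33 (SD, n = 5), followed by the mannose receptor Mrc1 (3.27, SE 0.18, adjusted p = 1.25e-14), from 9.53 ± 0.571 to 94.3 ± 10.1 CPM. Cd209a (2.62, adjusted p = 7.37e-05) and Olr1 (2.32, adjusted p = 3.13e-06) came next. Mrc1 and Mgl2 are textbook genes of macrophages exposed to interleukin-4. The neighbours of the members in the Clec4 cluster, Clec4a4, Clec4b1 and Clec4b2, were too low to be tested, at group means of 0.0620 CPM or less. At 3 wpi 1 of the 17, Cd72, was higher with IL-4 MSCs than with PBS (1.49, SE 0.27, adjusted p = 0.00375), where 2.94% of all genes were called in either direction.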

How the data were processed

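RNA was measured in 34 libraries of 1 mouse each. According to the labels and methods, the authors trimmed reads with cutadapt 2.4, quantified them with kallisto 0.46 against GENCODE vM23 transcripts and summarised them per gene with sleuth 0.30 in R 3.6.1. The deposited table holds estimated counts per gene, not normalised, and TPM per gene as the authors normalised it. Its columns of the authors' own comparisons were not used. A PBS mouse of 3 wpi left out by the authors was not analysed here.

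Estimated counts were rounded and fitted with edgeR 4.0.16 (R 4.3.3) by quasi-likelihood with TMM scaling over all 7 groups, after filterByExpr left 17131 of 21203 genes. P-values were adjusted by Benjamini-Hochberg over these genes at a threshold of 0.05. SE is the log2 fold change over the root of its F statistic. CPM are estimated counts over the library total, and log2 CPM for correlations used a prior count of 2. Depth was 29838423 to 41554322 counts. Scripts were tested on simulated counts. No 2 libraries of the same group were alike within sampling noise, and pairs from different groups were not checked.

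Mouse numbers in the sample titles were used as replicate numbers. The main fit did not use them as pairs. In no comparison was every same-number correlation over 0.1, which cannot exclude pairing or a shared batch. Between MSCs and PBS at 1 wpi the 5 correlations ran from 0.0227 to 0.400. There the best partner had the same number in 3 of them. Alternatives were DESeq2 1.42.0, upper-quartile scaling, no filter on low counts, fits of only the groups compared, a replicate block, Sham mice of the same week and each library left out. The 9 genes, the gene lists and the motifs were chosen with earlier results of these data known. All 9 genes are named, with the 3 genes most like each by Pearson's r, and of each list the called genes with the largest change, up to 4, plus Fcer1g, Tyrobp, Syk and Card9. The pan-myeloid and the monocyte and macrophage lists did not follow this rule. No called gene of the former was named for its change, and of the latter Ccr2 alone, which was not its largest.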

Additional observations from a re-analysis of the deposited data

Results flagged for a closer look

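Over 63 sets of 1 gene in 1 group, 8 held a mouse far from the rest by Dixon's ratio, the gap to the nearest mouse over the whole range of the group, taken on log2 CPM with a prior count of 2 while the levels given here are CPM, and chance gives about 1 in 20 such sets. In Clec4e it was Sham replicate 4, a ratio of 1 that comes from a single read, and PBS replicate 3 at 1 wpi (ratio 0.852, 4.06 CPM against 0.0632 to 0.147). Replicate 3 of the MSC group at 1 wpi was far above the others in Clec4d (ratio 0.812, 4.94 CPM against 0.340 to 0.580) and in Clec4n (ratio 0.731, 2.17 CPM against 0.322 to 0.555). Low mice were PBS replicate 5 in Clec7a (ratio 0.802, 2.30 CPM against 3.94 to 4.35) and PBS replicate 2 in Clec4a2 (ratio 0.739, 0.80 CPM against 1.16 to 1.31), both at 1 wpi. In Clec12a, Sham replicate 3 (ratio 0.723, 0.347 CPM against 0.545 to 0.678) and IL-4 MSC replicate 3 at 1 wpi (ratio 0.766, 1.19 CPM against 1.48 to 1.61) were low.

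The difference between IL-4 MSCs and a control group was itself different at 3 wpi and at 1 wpi in 3 genes, in edgeR's test of that change. Against PBS it was -2.42 in Clec7a (SE 0.472, adjusted p = 0.00144) and -1.83 in Clec4a3 (SE 0.356, adjusted p = 0.00146). Against MSCs it was -2.32 in Clec7a (SE 0.453, adjusted p = 0.000951), -3.16 in Clec4a1 (SE 0.482, adjusted p = 4.84e-05) and -2.23 in Clec4a3 (SE 0.333, adjusted p = 3.86e-05).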

How the results depend on the processing

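Counts of called genes among the 9 stayed within 1.5 times the reported count in most settings, and the exceptions follow, their causes not tested. Falls over time are given here over the 6 genes tested for them, of which 3 fell after PBS and 0 after MSCs in the main fit. With DESeq2 1 gene was called between IL-4 MSCs and PBS at 3 wpi, and 1 of the 6 fell after MSCs. Fitting only the groups compared left 2 of the 6 that fell after PBS and 0 after MSCs. It also gave a median of 0.97 for PBS at 1 wpi against Sham, and 4 genes in the change of the IL-4 MSCs to PBS difference between the weeks. In those 2-group fits edgeR called 0 of all tested genes between any treatments at 3 wpi. Without replicate 3 of PBS and of MSCs at 1 wpi, a setting added after seeing the data, 2 of the 6 fell after PBS and 0 after MSCs. In that setting the median for MSCs at 1 wpi against Sham was 1.05, and Clec4e between IL-4 MSCs and PBS turned from -0.40 to 2.51. With the replicate number as a block, the change of the IL-4 MSCs to PBS difference was called in 4 genes (Clec4a1 at -2.05 and Clec4a2 at -0.91 in addition), Clec4a3 no longer fell after PBS (-0.82, adjusted p = 0.0808), and no other call changed.

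Leaving out each library in turn gave, at 1 wpi, 5 to 6 called genes between IL-4 MSCs and PBS, 3 to 4 between IL-4 MSCs and MSCs and 0 to 0 between MSCs and PBS, and at 3 wpi 0 to 1, 0 to 1 and 0 to 0. Over time 2 to 5 were called after PBS, 0 to 7 after MSCs and 6 to 7 after IL-4 MSCs. These counts are over all 9 genes, including Clec4e, Clec4d and Clec4n, and so are no support for a fall. The 0 came without replicate 3 of MSCs at 1 wpi or replicate 3 of MSCs at 3 wpi, and the 7 without replicate 5 of MSCs at 3 wpi. Clec4a1 was no longer called lower after PBS without replicate 1, 2 or 3 of PBS at 3 wpi (adjusted p 0.0596, 0.0593 and 0.0652). Clec5a was called lower after MSCs without replicate 4 of MSCs at 1 wpi (0.0430). At 3 wpi Clec12a was called for IL-4 MSCs over MSCs without replicate 2 of the former (1.14, 0.00837). The changes between weeks gave 2 to 4, 3 to 4 and 0 to 0. Medians against Sham at 1 wpi were 1.30 to 1.65, 1.05 to 1.65 and 3.51 to 3.86 for PBS, MSCs and IL-4 MSCs, and at 3 wpi -0.10 to 0.10, 0.32 to 1.00 and 0.74 to 1.01.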
